A study of Drosophila melanogaster with 4 samples.

Results

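In ovaries of NSUN2 knockout flies, 120 of 2860 listed genes had lower footprint values than in wild type by a set margin while their mRNA values stayed close to the wild-type values. They were picked by their values. A gene had to reach a value of 5 in at least 1 genotype in each assay, its log2 footprint difference (knockout over wild type, after adding 1 to each value) had to be -0.8 or lower, and its log2 mRNA difference had to lie within 0.4 of 0. Of the 2643 genes that reached the value of 5 in both assays, 184 (6.96%) were this much lower in footprints and 93 (3.52%) this much higher. With mRNA held within the limit, 120 of 2099 genes (5.72%) were lower and 50 (2.38%) were higher. The whole rule thus took 4.54% of the 2643 genes. For scale, 60 genes (2.27%) had mRNA lower by 0.8 or more on the log2 scale. These counts describe the choice of genes and test nothing.

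The flies were Drosophila melanogaster of the strain W1118, either of wild-type genotype or lacking NSUN2, and whole ovaries were profiled. Each genotype gave 1 library of ribosome footprints of 28 to 30 nt and 1 library of poly(A) mRNA, so there were 4 groups of 1 library and no value below has a replicate or a p-value. No source used here gives the age of the flies, how the knockout was made or whether animals were pooled. The mRNA value of a dissected ovary sums over germ cells, follicle cells and muscle sheath, and in such bulk samples fewer cells of a type and less RNA per cell cannot be told apart. No gene that defines one of these cell types, and not the targeted gene, could be matched to the listed identifiers, so neither the tissue nor the knockout could be checked from the values.

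NSUN2 is a methyltransferase that places a methyl group on carbon 5 of cytosine (m5C) in several tRNAs and in some mRNAs. In other animals its tRNA methylation is known to protect tRNAs from being cut. A ribosome shields a short stretch of the mRNA it is reading from nuclease, so the number of footprints per message follows how many ribosomes sit on it. The footprint value over the mRNA value of a gene is called its translation efficiency, and it changes when ribosomes start more or less often on a message and also when they move faster or slower along it. During fly oogenesis much control of protein output acts on stored messages in this way.

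The deposited values were scaled by the authors to library depth and gene length. Whole reads and the scaling length could be recovered from them for 2859 of 2860 genes in footprints and for all 2860 in mRNA. Over the listed genes the footprint libraries held 1323478 recovered reads in wild type and 2521130 in the knockout, with medians of 164 and 307 reads per gene. The mRNA libraries held 4753778 and 12152829. A recovered count is the smallest that the values allow at a whole length. A minority of genes therefore have too few reads and too short a length, and their counting intervals are then too wide. A gene whose true length is not whole in the unit used has too many reads and too long a length instead. Its interval is then too narrow, and how many genes this concerns was not determined. The intervals below are 95% Clopper-Pearson limits, computed from how a gene's reads divide between the libraries or a library's reads between genes. Only counting error enters them, because no genotype has a replicate library in either assay. Differences between animals, dissections or library preparations are therefore not covered. PCR copies of a molecule cannot be told from separate molecules in these libraries. If such copies are among the reads, the counting error itself is understated and the intervals are too narrow.

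**Figure D1:**
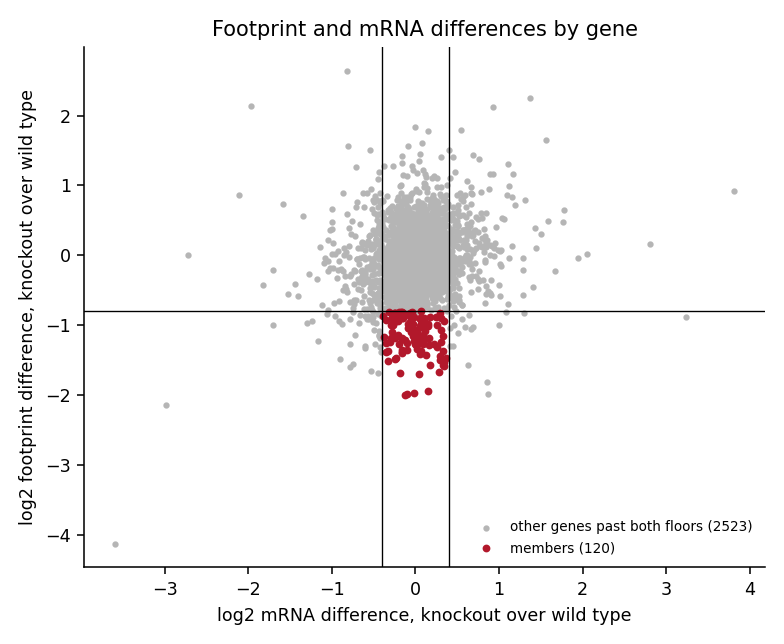
Log2 footprint difference (vertical axis) against log2 mRNA difference (horizontal axis), knockout over wild type, for 2643 genes with a value of at least 5 in both assays. Red points are the 120 chosen genes, which lie below the footprint line at -0.8 and between the mRNA lines at -0.4 and 0.4, and grey points are the other 2523.

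Across the 120 genes the median footprint values of wild type and knockout were 32.6 and 16.03, and the median mRNA values were 26.4 and 24.9. Single footprint values were 1.77-fold to 4.21-fold lower in the knockout, with a median of 2.29-fold. They were at least 2-fold lower in 88 genes and at least 3-fold lower in 13. The spread in level was wide, as wild-type footprint values ran from 5.49 to 1829, and wild-type mRNA values from 6.15 to 214. The low end is thinly counted. Under 50 recovered reads in wild-type footprints were found for 19 of the 120 genes (15.8%), near the background of 448 of the 2643 (16.95%). The knockout footprint value was under 5 in 21 of the 120 (17.5%) and in 89 of the 2643 (3.37%). These 21 genes reached the footprint value of 5 through wild type alone, where the rule makes them higher.

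The word "unchanged" holds for the mRNA of these genes only in the sense of the limit. Of the 120 mRNA differences, 47 had a counting interval wholly below 0, 30 had one wholly above 0, and 43 held 0. Among all 2643 genes such intervals lay below 0 in 35.1% and above 0 in 35.3%, so mRNA differences past counting error were common in these libraries. The median log2 mRNA difference of the 120 genes was -0.04, against 0.01 over all 2643. In footprints 117 of the 120 intervals lay below 0, where the background was 29.9%, and this follows from the rule. In 60 of them the interval also lay wholly below -0.8, against 83 (3.14%) of all 2643 genes, and this too follows from the rule. The intervals are of the plain values, while the rule adds 1 to each value.

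As a share of all recovered reads on the 2643 genes, the 120 took 9.85% (9.80 to 9.90) of wild-type footprints and 4.15% (4.13 to 4.18) of knockout footprints. Their share of mRNA reads was 3.43% (3.42 to 3.45) and 3.41% (3.40 to 3.42). Summed over the 120, the share of footprints was thus above the share of mRNA in both genotypes. The sum was carried by 31 genes with many footprints per mRNA unit in wild type. The other 89 ran the other way, with 1.81% of wild-type footprints against 2.44% of the mRNA, and 0.874% against 2.32% in the knockout. The lower footprint share was part of the choice of genes. The intervals of these shares do not cover reads recovered at a wrong length. FBgn0021764, whose length is uncertain as described below, gave 11391 of the 129185 wild-type footprint reads of the 120. An error there could move the footprint shares beyond their intervals.

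**Figure D2:**
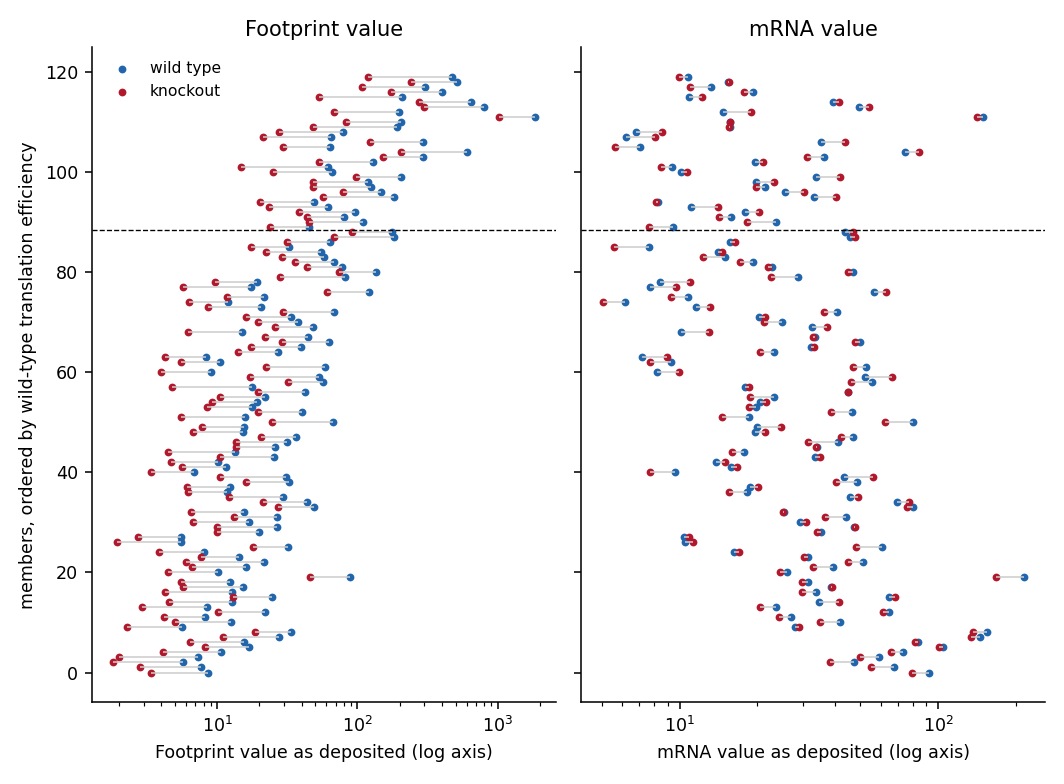
Deposited footprint values (left) and mRNA values (right) on log axes for each of the 120 genes, wild type in blue and knockout in red, joined by a grey line and ordered from the lowest wild-type translation efficiency at the bottom to the highest at the top. The dashed line separates the 31 genes with an efficiency of at least 4 from the other 89. Knockout footprints lie to the left in every gene, while the mRNA points of a gene lie close together.

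FBgn0004370 was the furthest below wild type. Footprints stood at 61.8 in wild type against 14.7 in the knockout, with mRNA values of 9.31 and 8.45. The footprint value was 4.21-fold lower (interval 3.79 to 4.68), on 1091 wild-type and 522 knockout recovered reads, over a recovered length of 1990 codons. The gene table used here gives this identifier no symbol.

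FBgn0250789 came next in order. Footprints had a value of 469 with NSUN2 and 118 without, 3.97-fold lower (3.84 to 4.11), while its mRNA value was low, at 10.8 and 9.98. It therefore had the highest wild-type translation efficiency of the 120 genes, 43.6 footprint units per mRNA unit, which stood at 11.8 in the knockout. Even so, it stayed among the most efficiently read messages, at percentile 99.96 of the 2643 genes in wild type and 99.1 in the knockout. Its listed m5C level of 0.941 was also among the highest.

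The remaining identifiers named here were picked after their values were seen. FBgn0021764 had the longest recovered length of the 120 genes, 6697 codons. At that length its coding part would exceed its recovered mRNA length of 9400, taken as nt. At least 1 of these lengths may thus be off by a whole factor. If the footprint length is too long, its reads are too many and the interval given next is too narrow. Wild-type footprints of 192 stood against 48.03 without NSUN2, 3.99-fold lower (3.87 to 4.12), and the mRNA values of 15.7 and 15.5 were nearly equal, with an interval that held 0. FBgn0026533 had the most footprints, 1829 against 1011, or 1.81-fold lower without NSUN2 (1.76 to 1.86), at mRNA values of 148 and 140.5. Its recovered length of 669 codons would also exceed its recovered mRNA length of 1973, so its interval carries the same limit. Other chosen genes show this conflict too, and how many was not counted. At the other end FBgn0029131 had the lowest wild-type efficiency. It had many mRNA reads, with values of 91.99 and 79.2, and few footprints, with values of 8.64 and 3.36 that rest on 23 and 18 recovered reads. Its 2.57-fold difference had an interval from 1.33 to 5.06.

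The only one of the 120 genes with a symbol in the gene table was Herc4, which encodes a ubiquitin ligase of the HECT family, an enzyme that marks proteins for breakdown or sorting. Its footprints were listed at 26.8 for wild type and 13.3 for the knockout, and its mRNA at 43.9 and 36.6. The recovered footprint reads were 14 in each library, the smallest count that the values allow at a whole length. On them the interval of its 2.01-fold difference reached from 0.889 to 4.55. Its recovered length was only 59 codons, where the median of the 120 genes was 737, so its true reads may be many more. On the recovered reads Herc4 was 1 of the 3 genes whose footprint interval held 0, but that interval may be much too wide. Its mRNA interval lay below 0 on the log2 scale, from -0.38 to -0.15.

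The 12 genes with the lowest footprint differences give a picture of the strongest end. They were 2.91-fold to 4.21-fold lower, and 8 of the 12 had a wild-type efficiency of at least 4 on the scale with 1 added to each value. Of the 12, 7 were at least 1200 codons long, 6 were both long and efficient, and 9 had at least 500 wild-type footprint reads. Over all 2643 genes 9.84% were this efficient, 17.03% this long and 2.57% both. Their mRNA differences ran from -0.33 to 0.34 on the log2 scale, on both sides of 0. The 6 genes with the highest wild-type footprint values, from 469 to 1829, all had a wild-type efficiency of at least 4 and were 1.81-fold to 3.97-fold lower. Wild-type footprints enter both of these orders and the efficiency, so the counts of efficient genes are a description.

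At the other edge, the chosen gene nearest to the footprint threshold had values of 5.49 and 2.73, on 23 recovered reads in each library. The nearest gene left out had a log2 difference of -0.799, with values of 15.2 and 8.29. The chosen genes thus shade into the others with no gap at the threshold.

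Grouped by wild-type translation efficiency, the 120 genes fell into a large middle group and 2 ends. For this grouping efficiency was taken on the log2 scale with 1 added to each value. It was at least 2 (4-fold more footprint than mRNA units) in 31 genes (25.8%), at most -2 in 10 (8.33%), and in between in 79. Over all 2643 genes the shares at the high and low end were 9.84% and 9.04%, so the low end was near the background. Ratios given per gene are of the plain values. The wild-type footprint and mRNA values are part of both the rule and the efficiency, so this grouping is a description. Its edges and those for length were set after the values were seen.

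The 31 highly efficient messages had median footprint values of 183 (wild type) and 53.4 (knockout), at median mRNA values of 15.8 and 17.7. Their efficiency had a median of 8.14 footprint units per mRNA unit in wild type and 3.09 in the knockout. They carried 8.04% of the wild-type footprint reads (7.997 to 8.09) on 0.994% of the mRNA reads, and 3.28% of the knockout footprint reads on 1.09% of the mRNA reads. FBgn0021764 is among these genes, so the limit on read shares given above applies here too. On these shares, the weight of the 120 genes in the footprint libraries lay in these 31. Their efficiency stood between percentiles 91.8 and 99.96 of all 2643 genes in wild type, and between 65.5 and 99.5 in the knockout. In wild type 31 of the 120 genes were among the 265 most efficient of the 2643, and in the knockout 12 were, all 12 in both genotypes.

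The 10 poorly read messages showed the opposite layout. Their mRNA was plentiful, at medians of 78.1 and 72.3 for wild type and knockout, while their median footprint value was 9.67 and 3.73. This layout is favoured by the grouping, where the mRNA value divides the footprint value. Recovered wild-type footprint reads of the 10 genes ran from 22 to 183, so each single fold is loosely fixed. The 79 genes in between had median footprint values of 21.9 and 10.4 at mRNA values of 29.3 and 29.6.

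Length did not enter the rule. The 120 genes had a median length of 737 codons, with quartiles at 376 and 1335, against a median of 584 and quartiles of 350 and 969 over all 2643 genes. The 50 genes with more knockout footprints at mRNA within the limit had a median of 401, with quartiles at 255 and 601.5. These 50 were more thinly counted, as 19 (38%) had under 50 recovered wild-type footprint reads, against 15.8% of the 120 and 16.95% of the 2643. A length of 1200 codons or more was found for 37 of the 120 genes (30.8%), for 450 of the 2643 (17.03%) and for 1 of the 50. The unit of length is taken to be the codon, which the files do not state, and the order of lengths does not depend on it. A gene whose recovered length is a multiple or a fraction of the true one is out of place in that order.

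**Figure D3:**
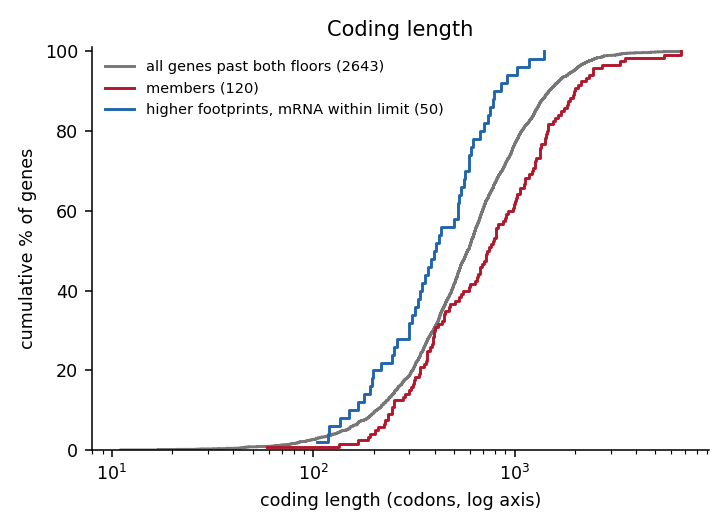
Cumulative percentage of genes (vertical axis) by recovered coding length in codons (horizontal log axis) for the 120 chosen genes in red, the 50 genes with higher knockout footprints in blue and all 2643 genes in grey. The median is 737 codons for the red curve, 584 for the grey one and 401 for the blue one.

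The length pattern was not limited to the chosen genes. Over the 2643 genes, which are not independent replicates and share the same 2 libraries, length and the footprint difference had a Spearman rho of -0.170. In the 210 longest of the 2099 genes with mRNA within the limit, from 1520 codons, the median log2 footprint difference was -0.20, and in the 210 shortest, up to 203 codons, it was 0.11. Of these, 22 of the longest and 6 of the shortest were among the 120. The counts between these ends did not rise steadily: the next 2 groups of 210 from the short end, from 203 to 403 codons, held 15 and 16 of the 120 (7.14% and 7.62%), and the following 3, up to 715 codons, held 7, 6 and 7. Longer messages also had less mRNA, with a rho of -0.385 between length and wild-type mRNA value. The part of the mRNA level in the length pattern was not tested.

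Shares of chosen genes by length and wild-type efficiency together are a description, since the wild-type footprint value enters the efficiency and the rule. Of the 49 genes with at least 1200 codons, an efficiency of at least 4 and mRNA within the limit, 16 (32.7%) were among the 120, and 0 were higher in footprints by the same threshold. The median log2 footprint difference of these 49 genes was -0.47, with quartiles at -1.21 and -0.12. Of the 63 equally efficient genes of 600 or more but under 1200 codons 12 (19.05%) were chosen, and of the 70 with under 600 codons 3 (4.29%). Among the less efficient genes the shares were 6.33% of 332 long genes, 3.54% of 622 of middle length and 4.78% of 963 short ones. The background over all 2099 genes was 5.72%. By knockout efficiency the picture was different. Of the 141 genes with a knockout efficiency of at least 4, 11 (7.80%) were chosen and the median log2 footprint difference was 0.10. The highest share by knockout efficiency was in the 210 least efficient genes, with 25 chosen (11.9%) and a median difference of -0.30. The knockout footprint value also enters the rule, so neither order is a finding about efficiency.

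**Figure D4:**
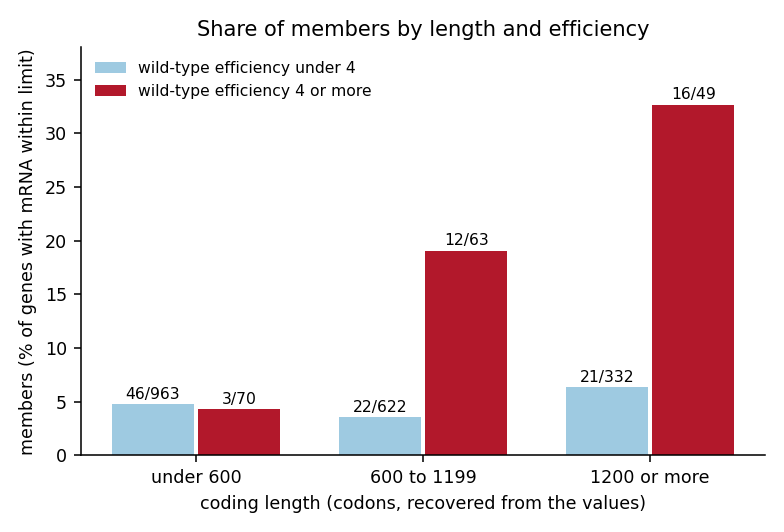
Percentage of genes that belong to the 120 (vertical axis, from 0) by coding length group (horizontal axis) and by wild-type translation efficiency, among 2099 genes with mRNA within the limit; labels give the chosen genes over all genes in the bar. The share is highest, 16 of 49, in efficient messages of at least 1200 codons.

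The 16 long and efficient genes had recovered lengths from 1266 to 6697 codons, uncertain at both ends, and 511 or more recovered wild-type footprint reads each. The gene with 1266 codons and 511 reads had a recovered mRNA length of 1174, which its coding part would exceed. Its reads may therefore be too many. On the recovered reads, counting error is smaller in these 16 than in most of the 120. Median footprint values were 169 for wild type and 50.6 for the knockout, and their median mRNA value was 13.4 and 14.8. Low mRNA in wild type is favoured by the grouping, where the mRNA value divides the footprint value. The rule then keeps the knockout mRNA value near it. The median log2 footprint difference of the 16 genes was -1.40, with quartiles at -1.67 and -1.22. The 15 efficient genes under 1200 codons had median footprint values of 183 and 56.7 at mRNA values of 19.6 and 19.8.

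Low mRNA was common among the 120 genes as a whole. A wild-type mRNA value under 20 was found for 48 of them and for 650 of all 2643 genes (24.6%), and a value of 100 or more for 5 (4.17%) and for 357 (13.5%). Of the 210 genes with the lowest wild-type mRNA values among the 2099, 23 were among the 120, and of the 210 with the highest values 4 were. For genes with higher knockout footprints the counts ran the other way, with 1 of the 210 lowest and 15 of the 210 highest.

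The m5C level is the highest fraction of methylated cytosine listed for a gene, and it did not enter the rule. From which sample, sites and coverage it comes no source used here states, and the depth behind it is unknown. The 120 genes had a median level of 0.284, with quartiles at 0.151 and 0.548, against 0.269 with quartiles at 0.156 and 0.474 over all 2643 genes. A level of at least 0.6 was listed for 25 of the 120 (20.8%) and for 462 of the 2643 (17.5%), and a level under 0.2 for 45 (37.5%) and 956 (36.2%). The chosen genes were therefore spread over nearly the whole range of listed levels, from 0.101 to 0.978. The lowest level over the 2643 genes was 0.1, so the comparison includes no message with a lower level or with none.

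The highest level, 0.978, belonged to FBgn0030266, a message of 3539 codons. Footprints were at 9.02 with NSUN2 and 4.005 without, 2.25-fold lower (1.89 to 2.68), and mRNA was at 8.21 and 9.97. The 6 genes with the highest levels, from 0.930 to 0.978, had 1.91-fold to 3.97-fold lower footprint values, and 4 of these 6 messages reached 1200 codons. Length and level go together in these tables, with a rho of 0.160 over the 2643 genes. Level and footprint difference had a rho of -0.072 over the 2643 genes, a weak relation between points that share both libraries. It was -0.129 within the 120 genes, whose footprint differences are cut off by the rule.

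**Figure D5:**
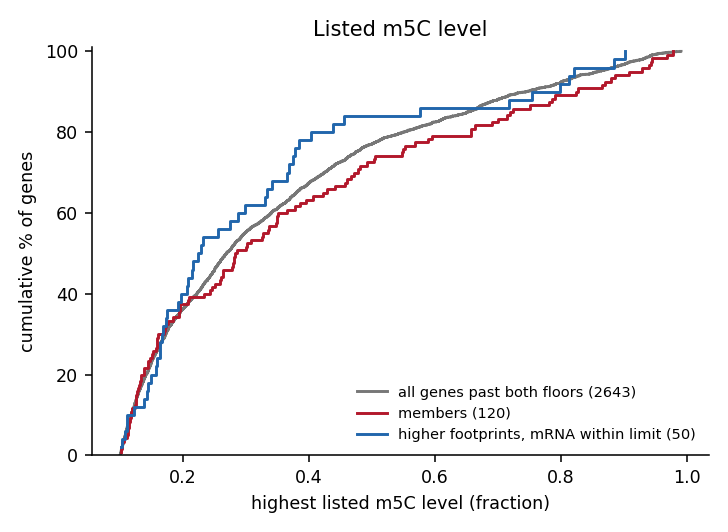
Cumulative percentage of genes (vertical axis) by the highest listed m5C level (horizontal axis, fraction) for the 120 chosen genes in red, the 50 genes with higher knockout footprints in blue and all 2643 genes in grey. The red and grey curves run together at low levels, and the medians are 0.284 and 0.269.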

How the data were processed

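Ovaries with and without NSUN2 each gave 1 footprint library and 1 poly(A) mRNA library. Per the labels' protocols, lysates were digested with micrococcal nuclease, the single-ribosome peak of a gradient was collected, and fragments of 28 to 30 nt were depleted of ribosomal RNA. Cutadapt, TopHat2, HTSeq and the build dm3 appear in the submitters' processing notes. No source used here gives versions, the annotation or how reads with several matches were handled. The deposited expression value is a signal per gene, scaled by the authors to depth and length (TPM or a kind of FPKM, which the files do not name). The deposited m5C level is a fraction, identical in the 4 files.

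Reads were recovered from the values of both libraries of an assay, which are whole reads times 1 constant over a whole length. The knockout libraries came out 2.01 times (footprints) and 2.58 times (mRNA) as deep as wild type. With these constants 34.4% and 32.6% of reduced footprint reads were even, as for whole numbers without a shared factor, and likewise 31.6% and 33.5% in mRNA. Depth ratios of 1.01 and 0.861 also give whole reads, but 67.4% of wild-type and 16.8% of knockout footprint reads would then be even, and 75.1% and 8.15% of mRNA reads divisible by 3. Read counts and intervals rest on this choice. Recovery was also run on data simulated from the recovered lengths and depth ratios. Every length in that simulation was whole, so it cannot show whether the true lengths are.

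Translation efficiency is log2 of footprint over mRNA value, each with 1 added. With 1 library per group no test was made. The members, gene lists and groups were chosen with earlier results of these data known. A further gene is not reported here. By rule the text names the 2 members with the lowest footprint difference and members with a symbol. The RefSeq table (Release 6) paired 18 of 2860 identifiers with a symbol, 1 of them a member. Of the gene lists and marker lists, 2 genes (Asx and pps, chromatin and transcription) matched and neither is a member, so members could not be grouped by role. Sequences, chromosome arms and protein composition were not analysed here. Python 3.11.15, numpy 2.4.6, pandas 2.3.3, scipy 1.17.1 and matplotlib 3.10.9 were used.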

Additional observations from a re-analysis of the deposited data

How the results depend on the processing

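No paired analysis was possible because a single library stands for each genotype and assay. The number of chosen genes was 53 with a floor of 20, 73 with a footprint threshold of -1 and 73 with an mRNA limit of 0.2, all of them among the 120. It was 141 with a pseudocount of 0.1 (119 shared), 82 with a pseudocount of 5 (76 shared), 155 with libraries scaled to the total of the listed genes (119 shared) and 105 with differences centred on their median (105 shared). Genes at least as much lower in footprints, 184 as reported, were 112 with a pseudocount of 5, 82 with the floor of 20 and 104 with the threshold of -1. With that threshold the median footprint and efficiency differences were -1.26 and -1.25, and the other alternatives run kept the former between -1.12 and -1.02. The median log2 wild-type efficiency, 0.08 as reported, was -0.23 and 1.40 with pseudocounts of 0.1 and 5, 0.30 with the floor of 20 and with the threshold of -1, 0.21 when centred, -0.0943 with total scaling and -0.0786 with the mRNA limit of 0.2. The long and efficient genes numbered 14 to 19 under the alternatives other than the floor of 20, with 5, and the mRNA limit of 0.2, with 9. A requirement of at least 50 reads in both footprint libraries, added after seeing the data, left 98 genes, 16 of them long and efficient.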
